A study of Rattus norvegicus with 3 samples.

Results

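The MHC class II genes described here are 6 genes of the rat: RT1-Ba and RT1-Bb, RT1-Da and RT1-Db1, Cd74, and Ciita. They were taken as a fixed list of symbols and looked up in the gene annotation of the count files, where all 6 of 6 were found among 22250 genes. Their Ensembl identifiers are ENSRNOG00000000451 (RT1-Ba), ENSRNOG00000032708 (RT1-Bb), ENSRNOG00000032844 (RT1-Da), ENSRNOG00000033215 (RT1-Db1), ENSRNOG00000018735 (Cd74) and ENSRNOG00000002659 (Ciita).

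The study sorted DAPI-stained nuclei from the heart apex, a piece holding septum and both ventricles, and counted RNA molecules per nucleus by their unique molecular identifiers (UMIs). There were 3 libraries from rats 12 months old, 1 for each genotype. All were of the outbred Sprague Dawley background. WT rats were wild-type, BMD rats carried an in-frame deletion of several exons of Dmd, the dystrophin gene, as a model of Becker muscular dystrophy, and DMD rats carried a Dmd deletion as a model of Duchenne muscular dystrophy. The deletions are carried in the germ line, so heart muscle and immune cells of a rat share the genotype. With 1 library per genotype, a difference between libraries cannot be told apart from a difference between animals or preparations, no test between genotypes was possible, and the intervals given are 95% intervals for counting error only.

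Class II molecules are heterodimers of an alpha and a beta chain that show peptides from outside the cell to CD4 T cells. RT1-B and RT1-D are the rat counterparts of human HLA-DQ and HLA-DR. Cd74 is the invariant chain, which holds the groove until peptide is loaded, and Ciita is the co-activator that switches the chains and Cd74 on. In the heart the molecules are known from dendritic cells, B cells and part of the macrophages. The RT1 chains differ greatly in sequence between rat strains.

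The promoters of the chains are shown because Ciita acts through a shared arrangement of sites there, the X box and the Y box, which hold RFX and NF-Y proteins. The windows are 100 bases from 130 to 31 bases before the RefSeq start, 5′ to 3′ on the strand of the gene, from build GRCr8. Capitals mark the Y box letters CTGATTGG and, upstream of them, ACNGATG, a short core of the X box. The core letters were chosen after the promoters had been read and do not overlap the Y box letters. RT1-Ba lies at chr20:4576927-4577026 (plus strand), RT1-Bb at chr20:4604149-4604248 (minus), RT1-Da at chr20:4515285-4515384 (plus) and RT1-Db1 at chr20:4560193-4560292 (minus).
RT1-Ba: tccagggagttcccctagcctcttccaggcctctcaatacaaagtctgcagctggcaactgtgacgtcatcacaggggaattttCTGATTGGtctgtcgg
RT1-Bb: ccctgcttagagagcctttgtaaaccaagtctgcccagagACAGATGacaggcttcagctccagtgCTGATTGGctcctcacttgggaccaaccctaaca
RT1-Da: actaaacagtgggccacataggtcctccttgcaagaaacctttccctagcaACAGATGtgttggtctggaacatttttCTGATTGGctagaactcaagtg
RT1-Db1: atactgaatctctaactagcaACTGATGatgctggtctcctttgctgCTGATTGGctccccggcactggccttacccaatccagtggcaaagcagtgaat

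The Y box letters stood in the promoters of all 4 chains, against 3.50% of 33469 rat promoters. Shares of promoters were counted on both strands over whole promoter sequences, which are longer than the windows shown. The X box core stood in RT1-Bb, RT1-Da and RT1-Db1, against 10.2% of promoters, so by itself it is common. RT1-Ba had no match to these short core letters, which does not show that it lacks an X box. Between the core and the Y box lay 19 bases in RT1-Bb, 20 in RT1-Da and 19 in RT1-Db1. A match describes the letters and not a bound site.

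Barcodes with at least 500 UMIs were taken as nuclei, which gave 10069 (WT), 6898 (BMD) and 8212 (DMD), with medians of 1200, 1468 and 1190 UMIs. Each library held 19215994 to 21609238 UMIs over all barcodes. Pairs of libraries shared 13 to 20 nuclear barcodes. Over 5% of the UMIs were mitochondrial in 11.4%, 11.0% and 17.3% of the nuclei of the same libraries. The class II genes were left out of the clustering, so that levels by cell type do not follow from it. Cell classes are called "-like" from marker genes. The 4 chains gave 5467 UMIs in all nuclei, Cd74 gave 4275 and Ciita gave 560.

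The class II genes were concentrated in a small set of immune nuclei. A dendritic-like sub-cluster of 226 nuclei, 0.898% of all, held 34.7% of the UMIs of the 4 chains, 24.5% of those of Cd74 and 49.6% of those of Ciita. A macrophage-like sub-cluster of 439 nuclei led by Trpc6, a cation channel gene, held 19.9% of the chain UMIs and 14.3% of the Ciita UMIs. The 95 B-like nuclei held 4.21% of the chain UMIs. A further 10.4% lay in 851 nuclei of a cluster led by Il1rl1, the receptor for interleukin 33. It carried markers of endocardial, fibroblast and macrophage nuclei together, had a median of 2268 UMIs and was left unnamed.

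Levels are given as CPM, the UMIs of a gene per 1000000 UMIs of the group of nuclei, and 3 values in a row are in the order WT, BMD, DMD. The 4 chains together were at 7116, 4842 and 5961 CPM in dendritic-like nuclei. They were at 2793, 3692 and 2666 CPM in B-like nuclei. In cardiomyocyte-like nuclei they were at 9.94, 10.7 and 12.1 CPM, the lowest among the named classes with over 1000 nuclei. Ciita was at 890, 838 and 1055 CPM in dendritic-like nuclei and at 0.932, 1.04 and 1.26 CPM in cardiomyocyte-like nuclei.

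**Figure D1:**
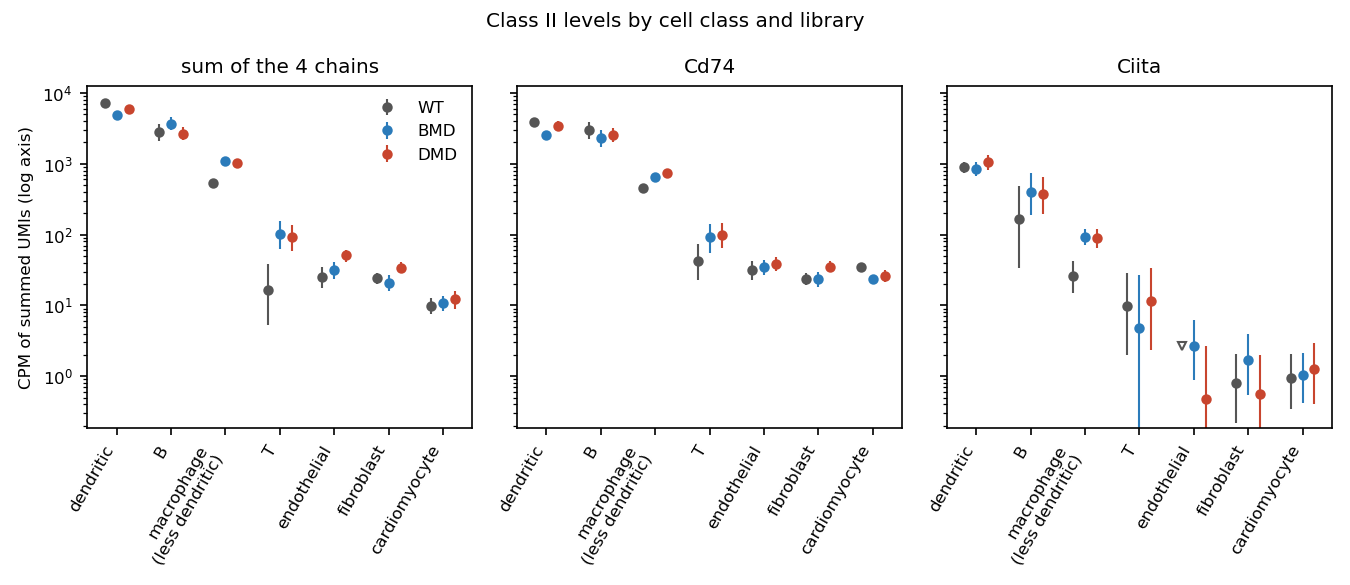
CPM of the 4 chains, Cd74 and Ciita (log axis) in 7 groups of nuclei, with 1 point per library and bars for the 95% counting interval; an open triangle is the upper limit where no UMI was seen. Dendritic-like and B-like nuclei sit highest in all 3 panels, and WT sits below BMD and DMD in the macrophage-like nuclei from which dendritic-like nuclei were left out.

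Shares of nuclei with a UMI were compared after each nucleus was thinned to 500 UMIs. Cd74 was seen in 73.0%, 64.8% and 70.5% of dendritic-like nuclei, where median depths were 1259, 1134 and 1350 UMIs. Before thinning the shares were 89.2%, 85.9% and 86.4%. In cardiomyocyte-like nuclei, which should lack the gene, Cd74 was seen in 1.70%, 1.42% and 1.37% of thinned nuclei, at median depths of 2761, 3752 and 3217 UMIs.

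Cd74 was not in a fixed ratio to the chains. Dendritic-like nuclei had 1.81, 1.87 and 1.72 chain UMIs per Cd74 UMI. Cardiomyocyte-like nuclei had 0.282, 0.462 and 0.462. The barcodes with at most 50 UMIs, which sample free RNA, had 1.03, 1.10 and 1.03. The cardiomyocyte-like ratio was below that of free RNA in each of the 3 libraries, on 64, 72 and 48 chain UMIs. The source of the Cd74 UMIs in cardiomyocyte-like nuclei was not tested.

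Within the dendritic-like nuclei, RT1-Bb differed most between libraries among the chains. Their label rested on 5 of 10 dendritic markers, Flt3, Xcr1, Clec9a, Zbtb46 and Batf3. Dendritic markers summed to 1927, 1893 and 2277 CPM there, and the 11 macrophage markers to 439, 445 and 686 CPM. Among the macrophage markers, Mrc1 had 27, 28 and 23 UMIs and Csf1r 21, 5 and 9. C1qa, a complement gene of macrophages, had 1 UMI in WT and none in BMD or DMD. RT1-Bb was at 2306, 952 and 1088 CPM. The log2 ratio was -1.28 (interval -1.62 to -0.94) for BMD over WT and -1.08 (-1.49 to -0.70) for DMD over WT. WT was above both others, whose intervals overlap. RT1-Bb was the 1 of 6 members past 2-fold in either comparison, where 6.88% of 1526 genes were past 2-fold in BMD over WT and 7.73% in DMD over WT. For DMD over BMD, 0 of 6 members and 8.06% of genes were past 2-fold.

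The other members moved less in dendritic-like nuclei. RT1-Ba, the alpha chain that pairs with RT1-Bb, was at 1183, 1076 and 1105 CPM. RT1-Da was at 1362, 1045 and 1423 CPM, and RT1-Db1 at 2266, 1769 and 2344. Both were lowest in BMD. With nuclei over 5% mitochondrial UMIs removed before clustering, RT1-Da was not lowest in BMD, at 0.20 for BMD over WT and -0.19 for DMD over BMD. The group found then held 97 nuclei, with 90 of the 152 dendritic-like nuclei kept by the filter. With the same nuclei filtered instead, RT1-Da was at 832, 768 and 1493 CPM, lowest in BMD. Cd74 was at 3927, 2586 and 3466 CPM, with a log2 ratio of -0.60 (-0.82 to -0.39) for BMD over WT. Ciita did not separate the libraries, with ratios of -0.09 (-0.50 to 0.32) and 0.24 (-0.21 to 0.69) over WT.

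Mitochondrial UMIs in dendritic-like nuclei also differed between the libraries. Over 5% mitochondrial UMIs were found in 50.5% of WT dendritic-like nuclei (56 of 111), 19.7% of BMD (14 of 71) and 9.09% of DMD ones (4 of 44). Without those nuclei RT1-Bb was at 1397, 782 and 1106 CPM. Its ratio was then -0.84 (-1.33 to -0.36) for BMD over WT and -0.34 (-0.82 to 0.14) for DMD over WT. The sum of the chains turned from -0.26 to 0.29 for DMD over WT. Cd74 was then at -0.23 (-0.55 to 0.09) for BMD over WT and turned to 0.50 (0.19 to 0.80) for DMD over WT. Cardiomyocyte markers in the dendritic-like nuclei summed to 837, 1583 and 954 CPM, highest in BMD, where the chains were lowest. The part of the mitochondrial UMIs and of the cardiomyocyte markers in these differences was not tested.

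**Figure D2:**
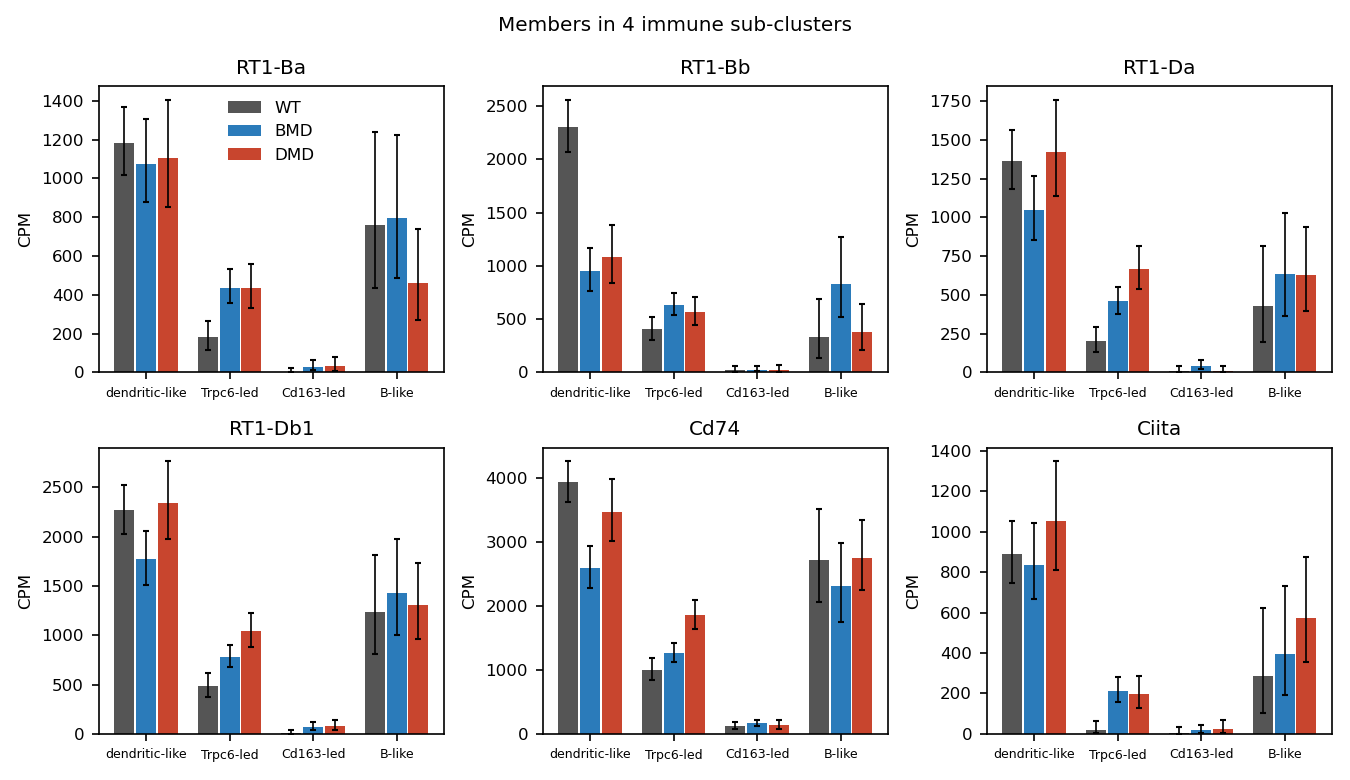
CPM of each of the 6 members in the dendritic-like, Trpc6-led, Cd163-led and B-like sub-clusters (bars, 1 per library) with 95% counting intervals. RT1-Bb stands at 2306 CPM in WT dendritic-like nuclei against 952 in BMD, and Ciita in Trpc6-led nuclei at 21.6 CPM in WT against 214 in BMD.

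The dendritic-like nuclei were divided once more, a step added after their values had been seen. A part of 105 nuclei with Clec9a among its 10 leading genes, a receptor for dead cells on cross-presenting dendritic cells, had the chains at 7412, 4243 and 4468 CPM. A part of 103 nuclei led by Il1rl1 had them at 6833, 6930 and 7915 CPM. The remaining 18 nuclei (2 WT, 13 BMD and 3 DMD) were left unnamed. Their chain level is not given, and their part in the lower BMD level of the sub-cluster was not tested. By itself the Il1rl1 part raised 3 of 11 macrophage markers (Mrc1, Csf1r and Cd68), 2 monocyte and 2 dendritic ones, against the other dendritic-like nuclei. The naming rule called it macrophage-like in that comparison. It also held Flt3 at 432, 737 and 687 CPM, above the 14.4 to 101 CPM of the Trpc6-led nuclei, with C1qa at 0 UMIs, so its markers are mixed. Of the Clec9a and Il1rl1 parts, the Clec9a part had lower chains in BMD than in WT, with a log2 ratio of -0.80 (-1.04 to -0.57). In the Il1rl1 part the ratio was 0.02 (-0.21 to 0.25). RT1-Bb was lower than in WT in both parts, at -1.68 (-2.26 to -1.13) and -0.56 (-1.03 to -0.11). Ciita in the Il1rl1 part was at 530, 914 and 981 CPM, lowest in WT.

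The Trpc6-led macrophage-like nuclei had higher class II levels in both dystrophic libraries than in WT. The chains were at 1270, 2315 and 2708 CPM, a log2 ratio over WT of 0.87 (0.62 to 1.12) and 1.09 (0.83 to 1.36). Their label rested on 5 of 11 macrophage markers raised against the other immune nuclei, C1qa, C1qb, C1qc, Csf1r and Adgre1. Mrc1 and Cd163 were present but not raised. The 11 markers summed to 4672 to 5489 CPM, with 0 of 11 at 0 UMIs. Dendritic markers summed to 447, 377 and 471 CPM, lowest in BMD, and Clec9a and Xcr1 had no UMI there. Of the 10 dendritic markers, 4 in WT, 5 in BMD and 5 in DMD had no UMI. Clec10a, another of them, was at 173, 240 and 326 CPM, against 173, 41.4 and 184 in dendritic-like nuclei. Flt3 was at 14.4, 38.6 and 101 CPM on 2, 9 and 14 UMIs, lowest in WT like the chains. Batf3, on 0, 5 and 2 UMIs, was also lowest in WT. Itgax, at 152, 38.6 and 7.24 CPM, and Zbtb46, at 43.3, 38.6 and 21.7 CPM, went the other way.

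RT1-Da had the largest DMD over WT ratio of the 4 chains in that sub-cluster, and RT1-Ba the largest BMD over WT ratio. RT1-Da was at 202, 459 and 666 CPM, a log2 ratio of 1.18 (0.57 to 1.84) for BMD and 1.72 (1.10 to 2.39) for DMD over WT. RT1-Ba was at 180, 437 and 435 CPM, with 1.28 (0.63 to 1.97) for BMD over WT, and RT1-Db1 at 483, 784 and 1043 CPM, so that WT was again lowest. RT1-Bb had the smallest ratios of the chains, at 404, 634 and 565 CPM, and its interval for DMD over WT, -0.03 to 1.01, reached below 0. Cd74 was at 1003, 1264 and 1854 CPM.

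Ciita, the co-activator, gave 3 UMIs over 98 WT nuclei of the Trpc6-led sub-cluster, 50 over 199 of BMD and 27 over 142 of DMD. The levels were 21.6, 214 and 196 CPM. The log2 ratios were 3.31 (1.68 to 5.63) and 3.18 (1.47 to 5.54), wide because the WT value rests on 3 UMIs. With nuclei over 5% mitochondrial UMIs removed before clustering, they were 0.60 and 0.95. With those nuclei taken out of the same sub-cluster instead, Ciita had 0 UMIs in 72 WT nuclei, 42 in 185 of BMD and 24 in 125 of DMD, so that all 3 WT UMIs lay in nuclei over the limit.

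Past 2-fold in BMD over WT were 3 of 6 members (RT1-Ba, RT1-Da and Ciita), where 7.24% of 2626 genes were. In DMD over WT they were 4 of 6, RT1-Db1 being the fourth, where 8.99% of genes were past 2-fold. In DMD over BMD they were 0 of 6, against 3.08% of genes. Over 5% mitochondrial UMIs were found in 26 of 98 WT nuclei, 14 of 199 BMD nuclei and 17 of 142 DMD nuclei there. Without those, the chains stood at 316, 2181 and 2236 CPM, and the WT value rested on 29 UMIs. Cardiomyocyte markers in the sub-cluster summed to 758, 1796 and 1427 CPM, lowest in WT like the chains, and their part was not tested. Cd163 and Spp1, which lead other immune sub-clusters described below, were highest in WT here. Cd163 was at 404, 193 and 297 CPM and Spp1 at 1198, 334 and 420 CPM. Mrc1 was lowest in WT, at 1227, 1342 and 1427 CPM. The WT nuclei may thus be made up differently, and the part of this in the chain ratios was not tested.

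With the libraries pooled, a chain UMI was seen in 47 of 55 nuclei of the sub-cluster with a Ciita UMI, or 85.5% (73.3 to 93.5). Without a Ciita UMI it was seen in 154 of 384, or 40.1% (35.2 to 45.2), at a lower median depth of 961 against 1188 UMIs. By library, that was 21 of 95 nuclei in WT, 72 of 166 in BMD and 61 of 123 in DMD. Nuclei with a Ciita UMI numbered 3, 33 and 19. In dendritic-like nuclei the pooled shares were 96.9% and 79.6%. Depth and library differ with the split, and their part was not tested.

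The Cd163-led macrophage-like nuclei, which carried the resident markers Cd163, F13a1, Stab1 and Lyve1, were low in class II. Their chains were at 46.5, 172 and 139 CPM, on 8, 40 and 18 UMIs. Cd74 was at 116, 164 and 131 CPM. The Spp1-led monocyte-like nuclei had chains at 533, 861 and 253 CPM, lowest in DMD.

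Over the whole macrophage-like class of 1683 nuclei, the sum of the chains differed little between libraries. The class contains nearly all dendritic-like, Trpc6-led, Cd163-led and Spp1-led nuclei. The chains were at 1767, 1588 and 1562 CPM. RT1-Bb was less even, with 463 of 1419 chain UMIs in WT, 275 of 1143 in BMD and 160 of 839 in DMD. None of the 6 members was past 2-fold in the 3 comparisons, where 5.01% of 6745 genes were in BMD over WT, 5.07% in DMD over WT and 2.65% in DMD over BMD. The dendritic-like nuclei made up 111, 71 and 44 of the nuclei of the class. Without them the chains were higher than in WT by a log2 ratio of 1.02 (0.83 to 1.21) in BMD and 0.92 (0.72 to 1.13) in DMD. Ciita was then higher by 1.84 (1.04 to 2.71) and 1.79 (0.95 to 2.69), and Cd74 by 0.51 (0.29 to 0.73) and 0.72 (0.50 to 0.95). The remaining nuclei were not made up alike. Trpc6-led nuclei were 17.9%, 39.9% and 34.5% of them, and Spp1-led nuclei, which had lower chain levels, were 39.9%, 11.2% and 13.7%. The part of this make-up in the ratios was not tested.

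**Figure D3:**
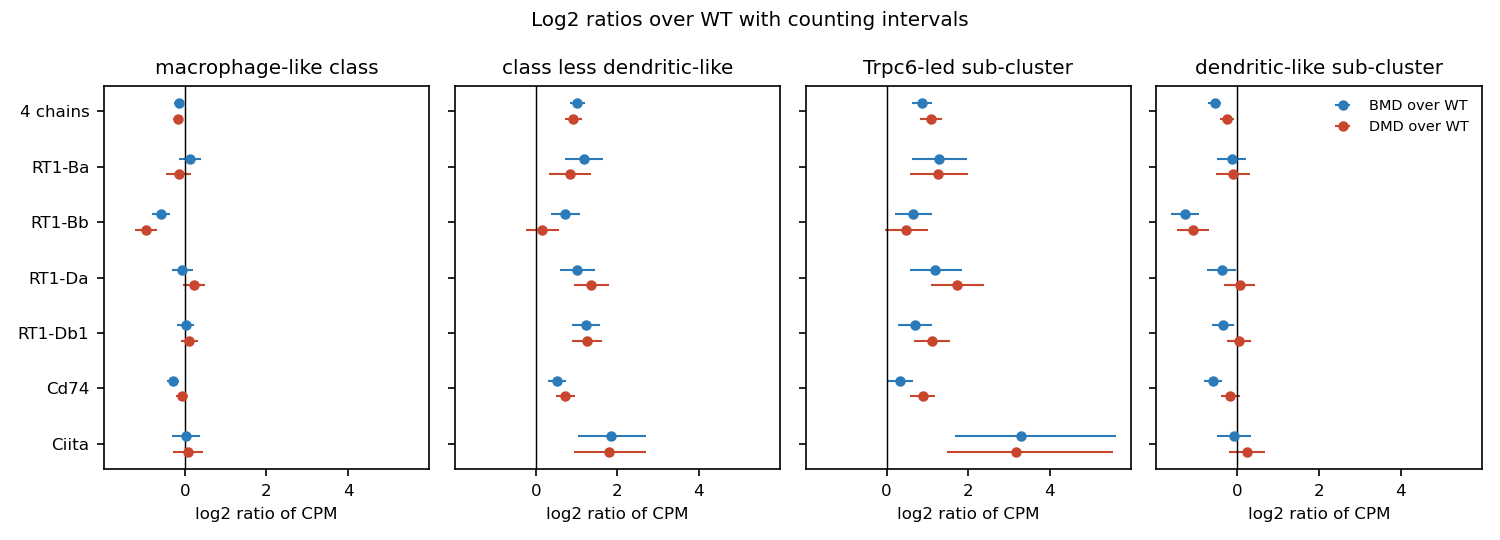
Log2 ratios of CPM over WT (points) with 95% counting intervals for the chains together and each member, in 4 groups of nuclei. The ratios of the macrophage-like class lie near or below 0, and most of those without the dendritic-like nuclei lie above 0.

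RT1-Bb took a different share of its pair in the 3 libraries. Of the UMIs of RT1-Ba and RT1-Bb in all nuclei, RT1-Bb held 63.7% (60.6 to 66.8), 55.7% (52.0 to 59.3) and 47.9% (44.0 to 51.8). The intervals do not overlap. In dendritic-like nuclei the share was 66.1%, 46.9% and 49.6%, and in Trpc6-led nuclei 69.1%, 59.2% and 56.5%. The order of the libraries was not the same in all cells. BMD was lowest in dendritic-like nuclei, WT was lowest in B-like nuclei (5 of 20, 21 of 41 and 11 of 27 UMIs), and BMD was highest in endothelial-like nuclei (8 of 14, 16 of 24 and 12 of 34 UMIs) and in the unnamed Il1rl1-led cluster (62.4%, 75.8% and 50.9%). The RT1-D pair was steadier: RT1-Db1 held 61.1%, 63.8% and 59.2% of its pair in all nuclei. Reads of RT1 genes may be assigned differently by haplotype, and the haplotypes of these rats were not analysed here.

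**Figure D4:**
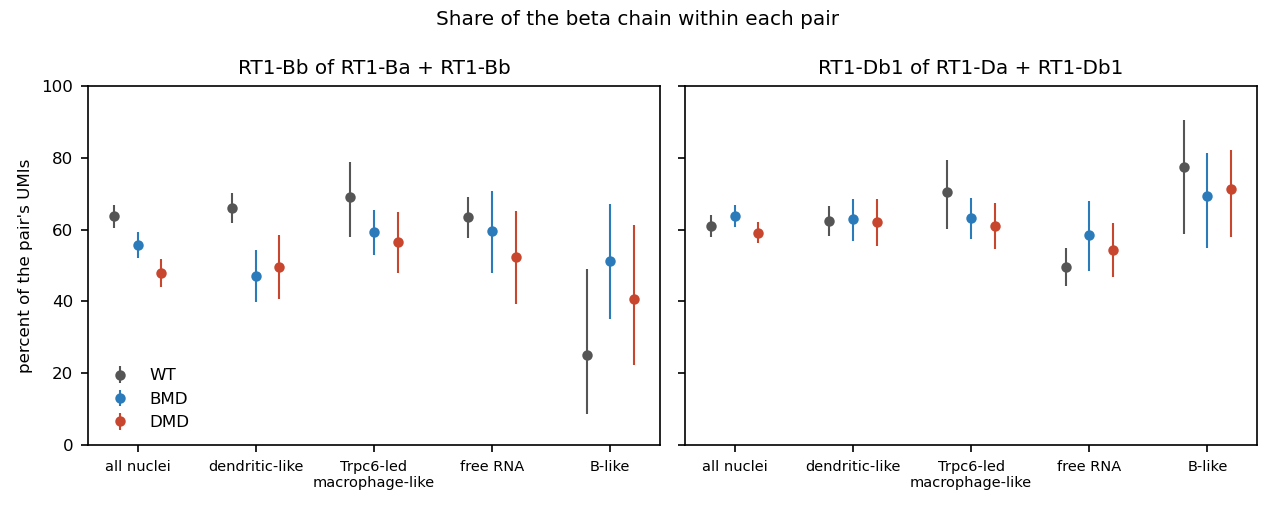
Percent of the UMIs of each alpha and beta pair held by the beta chain, RT1-Bb on the left and RT1-Db1 on the right, in 5 sources of RNA with 95% exact binomial intervals. RT1-Bb in all nuclei stands at 63.7% in WT and 47.9% in DMD, and RT1-Db1 in all nuclei between 59.2% and 63.8%.

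The RT1-D chains took the largest share of all chain UMIs in DMD, over all nuclei. They held 52.0% (49.8 to 54.3), 56.6% (54.1 to 58.9) and 64.2% (61.9 to 66.4) in all nuclei. In dendritic-like nuclei they held 51.0%, 58.1% and 63.2%, the same order. In Trpc6-led nuclei they held 54.0%, 53.7% and 63.1%, in B-like nuclei 60.8%, 55.9% and 68.6%, and in fibroblast-like nuclei 61.9%, 58.1% and 68.9%, so that BMD was not above WT there. Cardiomyocyte-like nuclei had the opposite order for DMD and WT, with 43 of 64, 37 of 72 and 24 of 48 UMIs.

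Genes of class II loading and co-stimulation were also read in the macrophage-like class. Of the 16 listed, 15 were in the gene annotation and 10 had at least 50 UMIs. Of these 10, 0 were past 2-fold in the 3 comparisons. RT1-DMa and RT1-DMb had no UMI in any nuclei, dendritic-like and B-like ones included, so nothing is said of them. Of all genes tested, 5.01% were in BMD over WT, 5.07% in DMD over WT and 2.65% in DMD over BMD. A count of 0 of 10 cannot be set apart from those shares. Ctss, the protease that trims the invariant chain, was at 288, 382 and 279 CPM. Ctsb, a lysosomal protease, was at 1007, 685 and 685 CPM, and Lgmn, another one, at 683, 770 and 655 CPM. The median log2 ratio of the list was 0.10 for BMD over WT, where that of all genes was 0.02.

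Among 8 promoter factors with at least 50 UMIs, 0 were past 2-fold in BMD over WT and 1 in DMD over WT, against 5.01% and 5.07% of all genes tested in the class. Counts this small cannot be set apart from those shares, here or for the lists that follow. Irf8, a transcription factor of dendritic cells and monocytes, was at 331, 267 and 156 CPM. With the libraries pooled, Irf8 was at 1176 CPM in dendritic-like nuclei and 103 CPM in the class without them. Within the dendritic-like nuclei it was at 2372 CPM in the Clec9a part and 22.0 CPM in the Il1rl1 part. Irf1, a transcription factor of the interferon response, was at 38.6, 128 and 42.8 CPM, highest in BMD. Nlrc5, the class I counterpart of Ciita, was at 61.0, 158 and 74.5 CPM, also highest in BMD.

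Of the class I list, 1 of 9 was past 2-fold in each comparison with WT, Nlrc5 in BMD and RT1-A2 in DMD. RT1-A2 was at 9.96, 23.6 and 54.0 CPM on 8, 17 and 29 UMIs. The resident macrophage list had 1 of 8 past 2-fold in both comparisons with WT, Folr2, a folate receptor, at 84.7, 213 and 177 CPM. In the recruited list of 9, 0 were higher and 3 lower past 2-fold in BMD over WT (Vcan, Itgax and Spp1), and 1 was higher (Trem2) and 2 lower (Itgax and Spp1) in DMD over WT. Spp1, a secreted matrix protein, was at 2633, 700 and 845 CPM. Itgax, an integrin, was at 103, 47.2 and 27.9 CPM, both highest in WT. Vcan, a matrix proteoglycan, was at 834, 245 and 545 CPM, and Trem2, a lipid receptor, at 29.9, 63.9 and 65.2 CPM. Within Spp1-led nuclei Spp1 was at 7857, 4450 and 5252 CPM, and Vcan at 2501, 1749 and 3567 CPM, highest in DMD. Those nuclei numbered 219, 56 and 56, and the part of the make-up of the class in these values was not tested.

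The genes whose levels followed the chains most closely over 44 points, each a cluster in a library, were Fgd2, Ly86, Ciita, Cd74, Cd86, Pkib, Fcmr and Cd83. Pearson's r with the chains was 0.96 for Fgd2, 0.95 for Ly86, 0.93 for Ciita and Cd74 and 0.93 for Cd86. The points share libraries and depth, so the values describe these clusters. Over 36 points of immune sub-clusters, Cd74 ranked first at 0.92 and Ciita second at 0.88, and 5 of the 8 genes stayed among the first 8, Cd86, Fcmr and Cd83 dropping out. With a pseudocount of 50 CPM in place of 10, 5 of 8 also stayed, and Pkib, Fcmr and Cd83 dropped out.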

How the data were processed

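The authors sorted nuclei, prepared libraries with a 10x Genomics kit and counted reads with Cell Ranger, and the deposited values are raw UMI counts per gene. The labels name build rn6. The WT barcodes came from an aggregate of the 3 libraries, whose header names version 6.0.1, while the BMD and DMD headers name version 4; in the aggregate the BMD and DMD counts were 76.1% and 92.9% of those in their own files.

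Nuclei (at least 500 UMIs) were clustered with scanpy 1.11.5 and igraph 0.11.9 on 2000 variable genes, 30 components, 15 neighbours and Leiden resolution 0.5, without class II genes, and immune nuclei were clustered again. Clusters were named from at least 3 markers raised 2-fold. No doublet filter was applied. CPM intervals are exact Poisson, shares exact Clopper-Pearson, and ratios exact binomial. Genes counted as past 2-fold had at least 50 UMIs over the 3 libraries and used CPM plus 5. The named genes were the 6 members, the 8 most similar genes, and listed genes past 2-fold or with most UMIs. The members and lists were chosen with earlier results of these data known. TMM factors came from edgeR 4.0.16. The ratio interval was tried on simulated Poisson counts, the model it assumes, so uneven spread of UMIs between nuclei was not tested. The counts of the interferon gamma list are not reported here.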

Additional observations from a re-analysis of the deposited data

Results flagged for a closer look

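The chains were at 417 CPM (336 to 512) in the DMD nuclei of an unnamed cluster led by mitochondrial genes, on 91 UMIs, against 120 CPM on 4 UMIs in WT. The free RNA of the DMD library held the chains at 342 CPM (301 to 388), which overlaps that interval. In the unnamed cluster led by Adarb2 the chains were at 74.3 CPM in BMD and 56.2 CPM in DMD, against 30.6 CPM in WT, and Cd74 was at 70.7 CPM in BMD against 37.4 CPM in WT. Both clusters lie outside the named cell classes, and their intervals lay above that of WT. No explanation was tested.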

How the results depend on the processing

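No paired analysis was possible because each genotype has 1 library, and no replicate could be left out. The Trpc6-led sub-cluster kept the direction of both comparisons with WT in every alternative that found it again. With class II genes in the clustering it was not found again, nor were the dendritic-like nuclei at resolution 1.0, so no value is given there. Leaving out the dendritic-like nuclei, filtering the same nuclei on mitochondrial UMIs and all alternatives for the 2 sub-clusters were chosen after seeing the data. There the chains were higher in BMD by 1.44 (at least 1000 UMIs), 0.62 (doublets removed), 0.57 (resolution 1.0) and 2.79 (the same nuclei without those over 5% mitochondrial UMIs), and in DMD by 0.83 (the study's number of nuclei), 0.82, 0.81 and 2.82 (doublets, resolution, mitochondrial). DMD over BMD turned to -0.23 at 1000 UMIs and -0.15 with the study's number.

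In the macrophage-like class, BMD over WT turned to 1.03 with mitochondrial nuclei removed before clustering, 0.97 at resolution 1.0, 0.48 without them afterwards and 1.02 without dendritic-like nuclei, and was -0.036 over all nuclei. DMD over WT was -0.44 at 1000 UMIs, and turned to 0.42, 0.92, 0.61 and 0.92 in the same order, 0.052 as a mean over nuclei and 0.19 over all nuclei. DMD over BMD was -0.28 at 1000 UMIs, -0.60 and 0.13 with the 2 mitochondrial filters, 0.11 as a mean and 0.22 over all nuclei. At resolution 1.0 the class held 1 of 111 WT dendritic-like nuclei and 0 in BMD and DMD. The cause of the changes was not tested, at resolution 1.0 or in the other settings.

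In dendritic-like nuclei, BMD over WT was -0.33 and -0.30 with the mitochondrial filters and -1.01 with class II genes in the clustering. DMD over WT was -0.50 and 0.29, -0.83 with class II genes and -0.45 with TMM. DMD over BMD was -0.18 and 0.58. The filter before clustering found again 90 of the 152 dendritic-like nuclei it kept, and clustering with class II genes 121 of 226.

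Single genes also turned. In the class, RT1-Bb in BMD over WT became 0.65, 0.58, 0.14 and 0.73, Cd74 0.94, 0.54, 0.39 and 0.51 (filter before clustering, resolution, filter afterwards, without dendritic-like nuclei), and RT1-Bb in DMD over WT 0.19 (resolution), 0.021 (filter afterwards) and 0.16 (without dendritic-like nuclei). In DMD over BMD, RT1-Da became -0.36 with the filter before clustering, and Cd74 -0.081 at 1000 UMIs and -0.44 with that filter. In dendritic-like nuclei, that filter turned RT1-Da to 0.20 (BMD over WT) and -0.19 (DMD over BMD) and RT1-Db1 to -0.053 (DMD over BMD), and class II genes in the clustering turned RT1-Da to -0.35 (DMD over BMD).

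Without thinning, Cd74 was seen in 32.0%, 35.4% and 36.4% of macrophage-like nuclei, against 22.7%, 22.6% and 27.4%. Genes past 2-fold numbered 189, 172 and 70 at 100 UMIs and 835, 980 and 843 without a filter, against 338, 342 and 179. Low UMI numbers limit Ciita most.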
